A study of Mus musculus with 2 samples.

Results

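Cycling microglia are resident macrophages of the central nervous system (CNS) that carry transcripts of the division machinery. A cell was counted as one when it held at least 1 UMI (unique molecular identifier, which marks 1 captured RNA molecule) in 3 or more of 9 microglia genes, at least 1 UMI in 3 or more of 7 proliferation genes, and 0 UMIs of Cd3e, a subunit of the T cell receptor complex. The microglia genes were P2ry12, Tmem119, Sparc, Olfml3, Gpr34, Sall1, P2ry13, Slc2a5 and Crybb1, and the proliferation genes were Mki67, Top2a, Cdk1, Birc5, Ube2c, Cenpf and Tpx2. The rule picked 768 of 25603 cells, 274 of 12305 in Stat4fl/flCD11cCre and 494 of 13298 in WT. The same 9 genes without the proliferation genes gave 11781 microglia in all, 6462 in Stat4fl/flCD11cCre and 5319 in WT. Of these, 5476 in Stat4fl/flCD11cCre and 3763 in WT had 0 UMIs in all 7 proliferation genes and are called non-cycling.

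Both libraries came from C57BL/6 mice with experimental autoimmune encephalomyelitis (EAE), a model of CNS inflammation driven by T cells, induced with MOG peptide in CFA together with PTX. In Stat4fl/flCD11cCre mice, Cre driven by the CD11c promoter is directed at a loxP-flanked Stat4 gene, which encodes a transcription factor used by the receptors of IL-12 and IL-23. The other genotype is labelled only WT. On day 15 CNS mononuclear cells were pooled within each genotype, so that 1 library stands for each, and cells positive for MHC class II (MHCII) and CD11c protein were sorted. Microglia without these proteins were outside the gate, the CD11c promoter also drives Cre, and the labels name the cells only as leukocytes. The number of mice per pool is not given in the sources used here. With 1 library per genotype no difference below has a test, and the intervals, at the 95% level, cover counting error only.

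Microglia settle the CNS early in development and renew themselves by local division, with little input from the blood. Their signature includes the purinergic receptors P2ry12 and P2ry13, the surface protein Tmem119 and the transcription factor Sall1, and it is known to fade in inflammation. A dividing cell copies its DNA and makes histones in S phase, and then builds the mitotic machinery in G2 and M, driven by cyclins and the kinase Cdk1. Inflamed microglia also take up MHC class II and interferon-induced genes, with interferon-γ from T cells as a main inducer.

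The libraries held 120221740 gene UMIs in Stat4fl/flCD11cCre and 122975017 in WT. Cycling microglia gave 7046317 in Stat4fl/flCD11cCre and 10962112 in WT of these, with a median of 22185.5 UMIs in Stat4fl/flCD11cCre and 16903 UMIs in WT per cell, against 5512.5 in Stat4fl/flCD11cCre and 5479 in WT non-cycling microglia. They also had more genes per cell, with medians of 5103 in Stat4fl/flCD11cCre and 4476.5 in WT against 2428 in Stat4fl/flCD11cCre and 2313 in WT non-cycling microglia. The median share of mitochondrial UMIs was 1.68% in Stat4fl/flCD11cCre and 1.84% in WT against 1.17% in Stat4fl/flCD11cCre and 1.64% in WT non-cycling microglia, and that of ribosomal protein UMIs 12.8% in Stat4fl/flCD11cCre and 13.5% in WT against 7.84% in Stat4fl/flCD11cCre and 11.3% in WT non-cycling microglia. 43 barcodes occurred in both libraries, and 1 of them belonged to a cycling microglia.

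The markers of the label were found in most members, as the rule requires. Sparc, which encodes a matrix protein made by microglia, was at 1002 CPM (UMIs per 1000000 UMIs of the cell set) in Stat4fl/flCD11cCre and 1000 CPM in WT, with a UMI in 98.2% of Stat4fl/flCD11cCre and 99.2% of WT members. Tmem119 was at 358 CPM in Stat4fl/flCD11cCre and 384 CPM in WT, in 98.5% of Stat4fl/flCD11cCre and 96.0% of WT members. Mki67, the Ki-67 proliferation antigen, was at 218 CPM in Stat4fl/flCD11cCre and 141 CPM in WT, in 89.1% of Stat4fl/flCD11cCre and 81.6% of WT members. Top2a, the topoisomerase that untangles chromosomes before they separate, was at 333 CPM in Stat4fl/flCD11cCre and 254 CPM in WT, in 82.8% of Stat4fl/flCD11cCre and 85.8% of WT members. After each cell was thinned to 2500 UMIs, Sparc was still seen in 82.8% of Stat4fl/flCD11cCre and 86.8% of WT members. In cells with Cd3e the thinned share was 1.13% in Stat4fl/flCD11cCre and 1.67% in WT. These control cells were also chosen to hold few of the microglia genes and few of the proliferation genes. Sparc is among the microglia genes that chose both sets. The gap in Sparc is thus fixed in part by the choice of cells and does not check the label.

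Markers of other cell types stood beside those of microglia in most members. Monocyte-derived cell markers (16 genes, among them Ccr2 and Ly6c2) took 10 or more of 10000 UMIs in 61.7% of Stat4fl/flCD11cCre and 63.0% of WT members, against 17.6% of Stat4fl/flCD11cCre and 36.8% of WT non-cycling microglia. All 16 genes were detected in each of these 4 cell sets, and their summed level was 5548 CPM in Stat4fl/flCD11cCre and 4868 CPM in WT members, against 2610 CPM in Stat4fl/flCD11cCre and 4156 CPM in WT non-cycling microglia. Neutrophil markers took 20 or more of 10000 UMIs in 19.0% of Stat4fl/flCD11cCre and 24.1% of WT members, against 6.98% in Stat4fl/flCD11cCre and 12.4% in WT non-cycling microglia. Markers of granulocyte progenitors, such as Elane and Mpo, passed 10 of 10000 UMIs in 10.6% of Stat4fl/flCD11cCre members and 1.62% of WT members. Members that passed any of these limits, or 10 of 10000 UMIs for T, NK or B cell markers, were 180 of 274 (65.7%) in Stat4fl/flCD11cCre and 334 of 494 (67.6%) in WT. They are called marker-rich. The limits were chosen after the values had been seen, and 17 Stat4fl/flCD11cCre and 46 WT members lay between 7.5 and 12.5 of 10000 UMIs for monocyte-derived cell markers. Marker-rich members had a median of 29852.5 UMIs in Stat4fl/flCD11cCre and 22843 UMIs in WT, and their 9 microglia genes summed to 2754 CPM in Stat4fl/flCD11cCre and 2657 CPM in WT. The other 94 Stat4fl/flCD11cCre and 160 WT members are called marker-low, and in them the 9 microglia genes summed to 6207 CPM in Stat4fl/flCD11cCre and 4904 CPM in WT and monocyte-derived cell markers to 319 CPM in Stat4fl/flCD11cCre and 448 CPM in WT. The 10% of cells with the highest doublet score of Scrublet in each library held 85 (31.0%) of Stat4fl/flCD11cCre and 102 (20.6%) of WT members, 10.6% of non-cycling microglia in each library, and 1 marker-low member in each. The 9 genes chose the cells, so their presence does not check the label. Microglia identity genes outside the rule (38 genes) summed to 27641 CPM in Stat4fl/flCD11cCre and 27959 CPM in WT marker-rich members, and to 55065 CPM in Stat4fl/flCD11cCre and 45049 CPM in WT marker-low members. Whether the transcripts of other cell types came from a second cell in the droplet was not tested. Main results are therefore given for all members and for marker-low members, the second set against marker-low non-cycling microglia (4278 cells in Stat4fl/flCD11cCre and 2185 cells in WT).

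**Figure D1:**
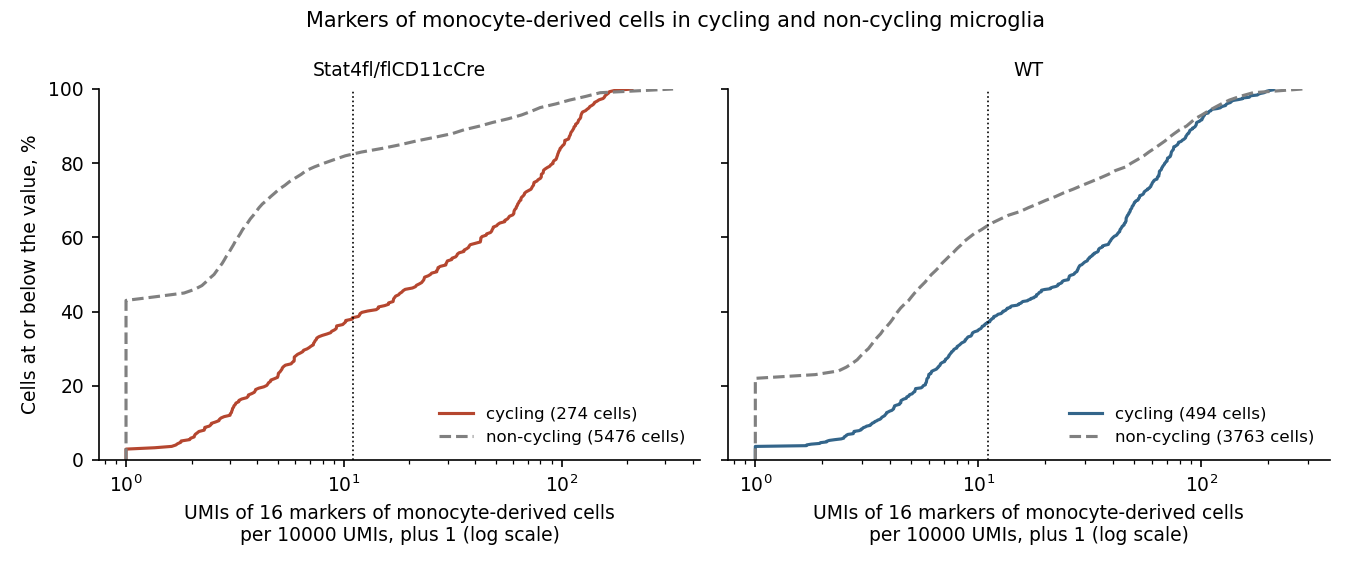
Cumulative share of cells (vertical axis, %) by the UMIs of 16 markers of monocyte-derived cells per 10000 UMIs plus 1 (horizontal axis, log scale), for cycling (solid) and non-cycling (dashed) microglia in Stat4fl/flCD11cCre (left) and WT (right). The dotted line marks 10 per 10000 UMIs, which 61.7% of Stat4fl/flCD11cCre and 63.0% of WT cycling microglia reached.

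A smaller share of the sorted microglia cycled in Stat4fl/flCD11cCre than in WT. Members made up 4.24% (95% Clopper-Pearson interval 3.76 to 4.76) of 6462 microglia in Stat4fl/flCD11cCre and 9.29% (8.52 to 10.1) of 5319 microglia in WT, a ratio of 0.457 (0.392 to 0.530). With each cell thinned to 2500 UMIs and the whole rule applied again, 109 of 6012 (1.81%) Stat4fl/flCD11cCre and 161 of 4466 (3.61%) WT microglia cycled, a ratio of 0.503 (0.391 to 0.645). Among marker-low microglia the shares were 94 of 4669 (2.01%) in Stat4fl/flCD11cCre and 160 of 2692 (5.94%) in WT, a ratio of 0.339 (0.260 to 0.440). The ratio was under 1 in each of these sets, but no replicate shows how far it varies between pools. The gate on MHCII and CD11c also bears on which microglia are counted.

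The share climbed with depth in both libraries, and the gap between them narrowed in some of the deeper bins. Between 5000 and 10000 UMIs, 1.95% (1.41 to 2.62) of Stat4fl/flCD11cCre and 8.29% (6.91 to 9.83) of WT microglia cycled. Between 10000 and 20000 UMIs it was 6.40% (5.03 to 8.01) in Stat4fl/flCD11cCre and 12.4% (10.6 to 14.5) in WT. Between 20000 and 40000 UMIs the intervals overlapped, at 17.6% (14.7 to 20.8) in Stat4fl/flCD11cCre and 20.3% (17.3 to 23.7) in WT. Above that depth the shares were 29.2% in Stat4fl/flCD11cCre and 45.4% in WT. Among marker-low microglia of 20000 to 40000 UMIs the intervals also overlapped. There 12 of 77 cycled in Stat4fl/flCD11cCre (15.6%, 8.32 to 25.6) and 8 of 28 in WT (28.6%, 13.2 to 48.7). In every bin drawn the Stat4fl/flCD11cCre share was the lower one.

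**Figure D2:**
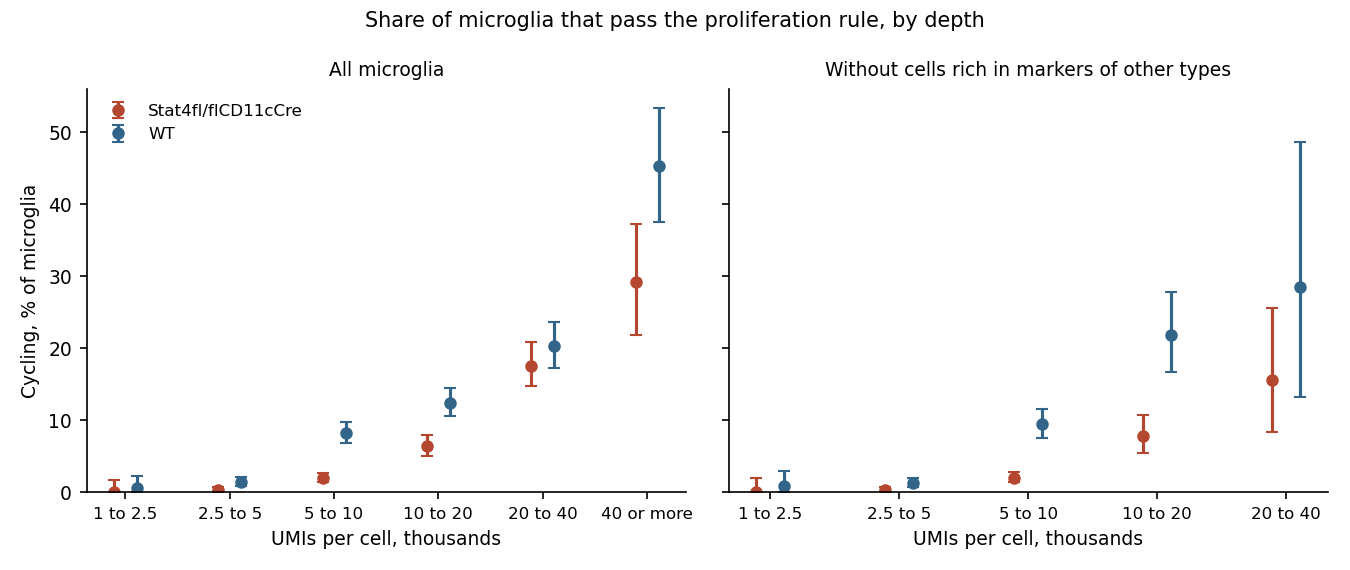
Share of microglia that cycled (vertical axis, %) in bins of UMIs per cell (horizontal axis, in units of 1000 UMIs), for all microglia (left) and marker-low microglia (right), with exact Clopper-Pearson intervals. Bins with under 20 microglia are left out, and the WT point lies above the Stat4fl/flCD11cCre point in each bin.

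The rule had a threshold on both gene sets. At the threshold, 46 Stat4fl/flCD11cCre and 101 WT members had exactly 3 proliferation genes, and genes of G2 and mitosis took a median of 9.92 of 10000 UMIs in Stat4fl/flCD11cCre and 8.54 in WT. Just outside, 97 Stat4fl/flCD11cCre and 238 WT microglia with 2 of these genes had medians of 3.70 in Stat4fl/flCD11cCre and 4.39 in WT. The 102 Stat4fl/flCD11cCre and 119 WT members with all 7 had medians of 56.0 in Stat4fl/flCD11cCre and 42.1 in WT. On the other gene set, 4 Stat4fl/flCD11cCre and 8 WT members had only 3 microglia genes, while 120 in Stat4fl/flCD11cCre and 162 in WT had all 9.

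The other rule genes are given as levels only, since they chose the cells. Cdk1, the kinase that starts mitosis, was at 108 CPM in Stat4fl/flCD11cCre and 71.0 CPM in WT. Birc5 (survivin, of the chromosomal passenger complex) was at 190 CPM in Stat4fl/flCD11cCre and 99.7 CPM in WT, Ube2c (an enzyme that marks mitotic cyclins for destruction) at 218 CPM in Stat4fl/flCD11cCre and 109 CPM in WT, Cenpf (a kinetochore protein) at 123 CPM in Stat4fl/flCD11cCre and 86.1 CPM in WT, and Tpx2 (a spindle assembly factor) at 94.7 CPM in Stat4fl/flCD11cCre and 73.0 CPM in WT. Over all members each of the 7 proliferation genes had the higher level in Stat4fl/flCD11cCre, with a ratio of their sums of 1.54, while among marker-low members 5 of 7 did, with a ratio of 1.11 and 0 past 1.5-fold. P2ry12 was at 639 CPM in Stat4fl/flCD11cCre and 436 CPM in WT members, against 1571 CPM in Stat4fl/flCD11cCre and 733 CPM in WT non-cycling microglia. Gpr34, a lysophosphatidylserine receptor, was at 329 CPM in Stat4fl/flCD11cCre and 176 CPM in WT against 1020 CPM in Stat4fl/flCD11cCre and 394 CPM in WT non-cycling microglia. Sall1 was at 117 CPM in Stat4fl/flCD11cCre and 108 CPM in WT against 258 CPM in Stat4fl/flCD11cCre and 150 CPM in WT non-cycling microglia, and P2ry13 at 107 CPM in Stat4fl/flCD11cCre and 92.1 CPM in WT against 282 CPM in Stat4fl/flCD11cCre and 147 CPM in WT non-cycling microglia. Olfml3, a secreted matrix protein, was at 599 CPM in Stat4fl/flCD11cCre and 556 CPM in WT against 905 CPM in Stat4fl/flCD11cCre and 615 CPM in WT non-cycling microglia. Slc2a5, a fructose transporter, was at 75.8 CPM in Stat4fl/flCD11cCre and 52.5 CPM in WT against 191 CPM in Stat4fl/flCD11cCre and 83.1 CPM in WT non-cycling microglia. Crybb1, a crystallin, was at 137 CPM in Stat4fl/flCD11cCre and 190 CPM in WT against 300 CPM in Stat4fl/flCD11cCre and 275 CPM in WT non-cycling microglia. Over all cells each of the 9 microglia genes was lower in members than in non-cycling microglia in both libraries. Among marker-low cells the log2 ratios of Olfml3 were 0.02 in Stat4fl/flCD11cCre and -0.02 in WT. These genes chose both cell sets, and non-cycling microglia had fewer UMIs per cell, so this order only describes the cells picked.

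Members held transcripts of both S phase and of G2 and mitosis. Genes of S phase (49 genes) took a median of 11.9 of 10000 UMIs in Stat4fl/flCD11cCre and 11.1 in WT members, against 3.78 in Stat4fl/flCD11cCre and 3.98 in WT non-cycling microglia. Genes of G2 and mitosis (59 genes) took 27.9 in Stat4fl/flCD11cCre and 23.3 in WT, against 1.89 in Stat4fl/flCD11cCre and 2.08 in WT non-cycling microglia. More UMIs of S phase than of G2 and mitosis genes were found in 80 of 274 Stat4fl/flCD11cCre members (29.2%, interval 23.9 to 35.0) and 151 of 494 WT members (30.6%, 26.5 to 34.8), intervals that overlap. Among marker-low members the shares were 26.6% in Stat4fl/flCD11cCre and 25% in WT. The split is a line through a continuous range, and 27 Stat4fl/flCD11cCre and 71 WT members lay within 10% of it. All 7 proliferation genes of the rule are highest in G2 and mitosis, so cells in early S phase are under-picked by construction, and the lists differ in size, so the split does not measure the share of cells in each phase. Across members, the S phase and G2 and mitosis contents had a Spearman correlation of 0.32 in Stat4fl/flCD11cCre and 0.43 in WT, in cells that share a library and differ in depth.

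**Figure D3:**
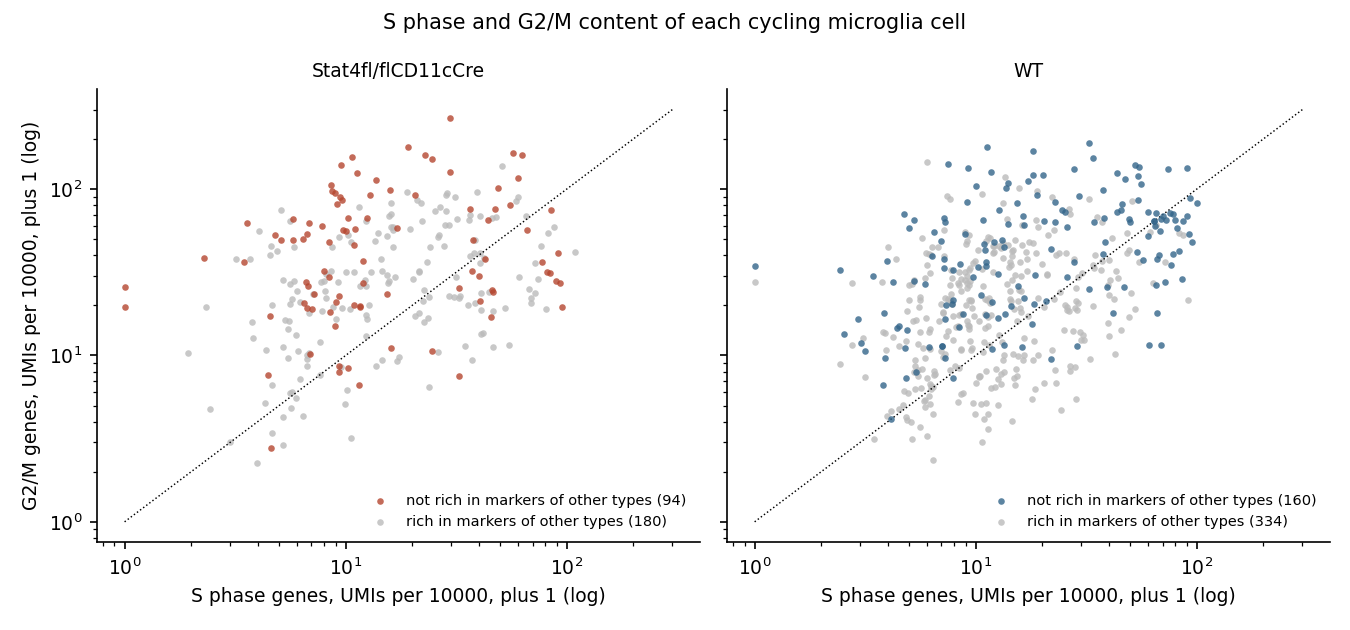
Each point is 1 cycling microglia, placed by its UMIs of S phase genes (horizontal axis) and of G2 and mitosis genes (vertical axis), both per 10000 UMIs plus 1 on log scales, in Stat4fl/flCD11cCre (left) and WT (right). The dotted line marks equal content, and 80 of 274 points in Stat4fl/flCD11cCre and 151 of 494 in WT lie on the S phase side of it.

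Cycling cells that were not microglia carried more of the same programme per UMI. The 321 Stat4fl/flCD11cCre and 189 WT cells that passed the proliferation genes alone, without Cd3e and without 3 microglia genes, had G2 and mitosis medians of 58.5 of 10000 UMIs in Stat4fl/flCD11cCre and 56.3 in WT, and S phase medians of 41.6 in Stat4fl/flCD11cCre and 29.4 in WT. Members were lower on both counts in both libraries. Marker-low members lay closer for G2 and mitosis, with medians of 38.9 in Stat4fl/flCD11cCre and 42.3 in WT. For S phase they lay further away in Stat4fl/flCD11cCre, with a median of 10.1 against 11.9 for all members. In WT they lay closer for S phase, at 15.9 against 11.1. The ratio of summed G2 and mitosis genes, members over the other cycling cells, was 0.575 in Stat4fl/flCD11cCre and 0.400 in WT for all members, and 0.828 in Stat4fl/flCD11cCre and 0.813 in WT for marker-low members. The microglia genes of the rule summed to 22.2 CPM in Stat4fl/flCD11cCre and 30.0 CPM in WT in those cells, against 3363 CPM in Stat4fl/flCD11cCre and 2995 CPM in WT members. Microglia identity genes outside the rule (38 genes, such as Cx3cr1 and Csf1r) summed to 32481 CPM in Stat4fl/flCD11cCre and 30530 CPM in WT members, and to 3741 CPM in Stat4fl/flCD11cCre and 4662 CPM in WT in the other cycling cells.

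The genes that set members apart from non-cycling microglia outside the rule genes were led by DNA replication, histone and spindle genes. Of 3391 genes with a mean of 50 CPM or more in each library, 66 (1.95%) were over 1.5-fold higher in members in both libraries, and 55 (1.62%) over 1.5-fold lower. Among marker-low microglia it was 201 of 3505 (5.73%) higher and 126 (3.59%) lower. Counts in single libraries differed widely. In Stat4fl/flCD11cCre alone 432 of 3725 genes (11.6%) were higher and 533 (14.3%) lower, while in WT alone 68 of 3551 (1.91%) were higher and 59 (1.66%) lower. The rule used this contrast, so the counts describe the cells picked and are no test of them.

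Pclaf, a PCNA partner at replication forks, had the highest ratio by the weaker of both libraries. It was at 208 CPM in cycling and 1.28 CPM in non-cycling microglia of Stat4fl/flCD11cCre, and at 111 CPM in cycling and 1.84 CPM in non-cycling microglia of WT, log2 ratios of 7.34 in Stat4fl/flCD11cCre and 5.92 in WT. Hist1h2ap and Hist1h2ae, replication-dependent histone H2A genes, followed with log2 ratios of 4.52 for Hist1h2ap and 4.74 for Hist1h2ae in Stat4fl/flCD11cCre, and 3.91 for Hist1h2ap and 3.65 for Hist1h2ae in WT. Histone genes of this cluster are near-identical copies, so their reads may be split between them. Stmn1, a protein that takes microtubules apart, was at 502 CPM in cycling and 24.6 CPM in non-cycling microglia of Stat4fl/flCD11cCre, and at 275 CPM in cycling and 27.6 CPM in non-cycling microglia of WT (log2 ratios 4.35 in Stat4fl/flCD11cCre and 3.31 in WT). H2afx, the histone variant marked at DNA breaks, had log2 ratios of 3.74 in Stat4fl/flCD11cCre and 2.70 in WT. Smc4, a condensin subunit that packs mitotic chromosomes, had 3.19 in Stat4fl/flCD11cCre and 2.39 in WT. Hmgb2, a chromatin protein of dividing cells, was at 1523 CPM in cycling and 144 CPM in non-cycling microglia of Stat4fl/flCD11cCre, and at 667 CPM in cycling and 185 CPM in non-cycling microglia of WT (3.41 in Stat4fl/flCD11cCre and 1.85 in WT). Ezh2, the methyltransferase of Polycomb complex 2, had 2.59 in Stat4fl/flCD11cCre and 2.0 in WT. These genes were higher in cycling microglia in both libraries, with the larger ratio in Stat4fl/flCD11cCre.

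The remaining genes of the 15 highest were Tubb4b (a β-tubulin, log2 ratios of 2.59 in Stat4fl/flCD11cCre and 1.73 in WT), Cep128 (a centriole protein, 2.21 in Stat4fl/flCD11cCre and 1.72 in WT), Cks2 (a partner of cyclin-dependent kinases, 2.63 in Stat4fl/flCD11cCre and 1.62 in WT), Atad2 (a chromatin ATPase, 2.01 in Stat4fl/flCD11cCre and 1.52 in WT), Selenoh (a nucleolar selenoprotein, 2.22 in Stat4fl/flCD11cCre and 1.41 in WT), Prtn3 and Camp. The last pair encode neutrophil granule proteins. Over all members, Prtn3 had log2 ratios of 6.00 in Stat4fl/flCD11cCre and 3.08 in WT and was at 704 CPM in Stat4fl/flCD11cCre and 133 CPM in WT. In marker-low members it was at 2.41 CPM in Stat4fl/flCD11cCre and 3.03 CPM in WT. Camp had log2 ratios of 3.90 in Stat4fl/flCD11cCre and 1.61 in WT over all members, and of -0.40 in Stat4fl/flCD11cCre and 0.44 in WT among marker-low cells. Marker-low cells kept the difference in the cell cycle genes, with Pclaf at log2 ratios of 6.63 in Stat4fl/flCD11cCre and 6.84 in WT, Stmn1 at 4.29 in Stat4fl/flCD11cCre and 3.91 in WT, Hmgb2 at 3.38 in Stat4fl/flCD11cCre and 2.93 in WT, Smc4 at 3.98 in Stat4fl/flCD11cCre and 3.66 in WT and Ezh2 at 3.18 in Stat4fl/flCD11cCre and 2.92 in WT.

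**Figure D4:**
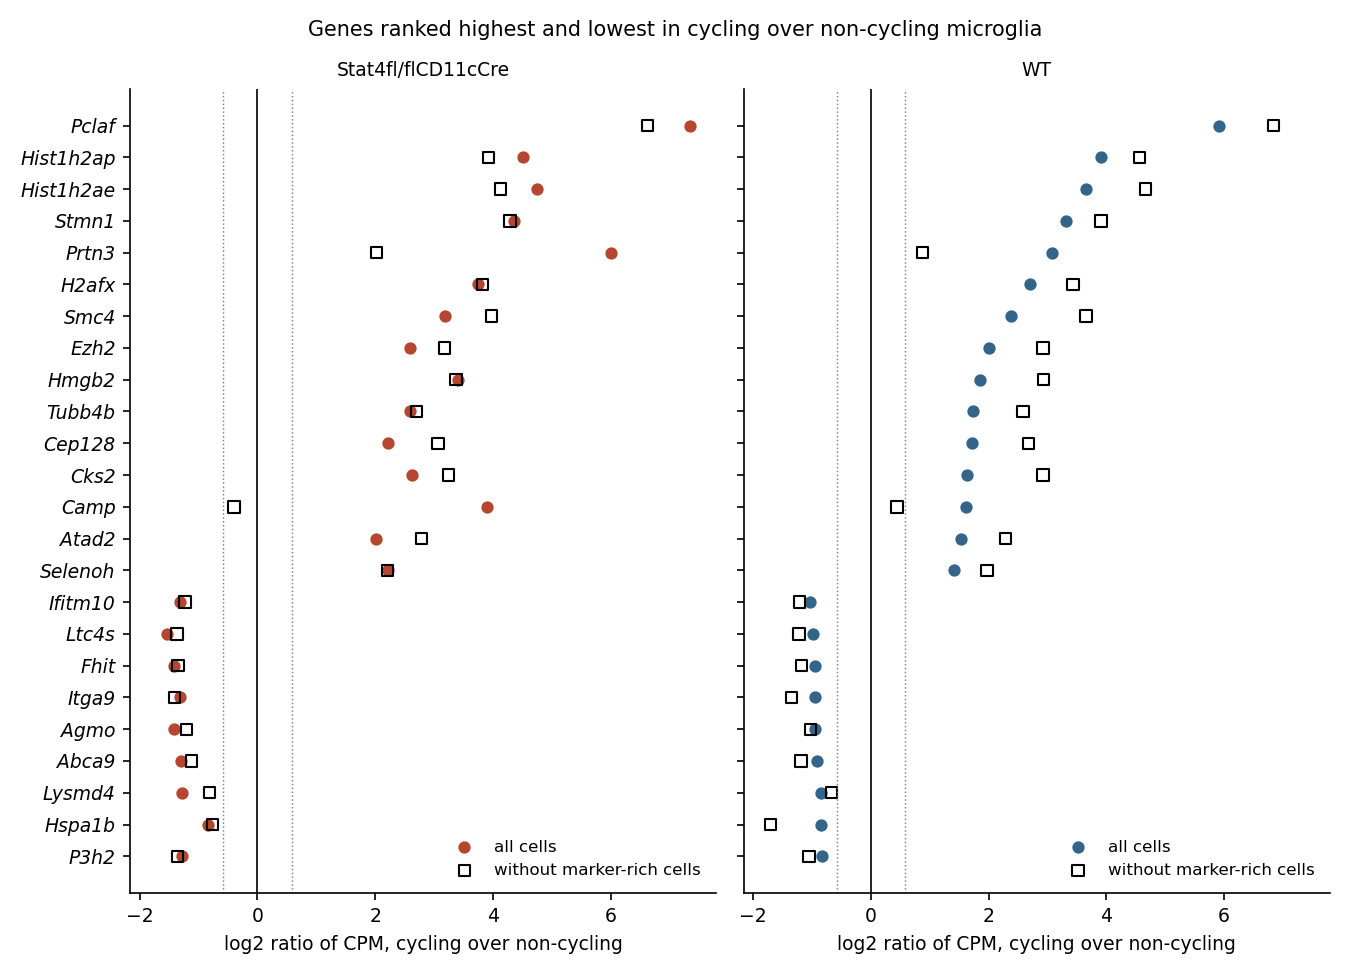
log2 ratio of CPM, cycling over non-cycling (horizontal axis), of the 15 genes with the highest ratio and 9 of the 10 with the lowest, in Stat4fl/flCD11cCre (left) and WT (right), for all cells (filled) and marker-low cells (open). Pclaf stands at 7.34 in Stat4fl/flCD11cCre and 5.92 in WT, and the open symbol of Camp lies at -0.40 in Stat4fl/flCD11cCre.

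Promoters of 4 genes are shown, picked from the genes with the highest ratios and those of the rule. They were picked because they hold short elements known from cell cycle promoters, namely the CCAAT box and the CHR element. The CHR element reads TTTGAA or, as a variant of it, TTTAAA. The sequences are RefSeq's for GRCm38.p6, from 250 bases before to 50 bases after the annotated start, 5′ to 3′ on the strand of the gene. Capitals mark these 3 motifs on either strand, so a CCAAT box of the other strand appears as ATTGG. No motif overlaps another in the sequences shown. They are, in order, chr9:65890073-65890372 on the plus strand for Pclaf and, on the minus strand, chr13:23571171-23571470 for Hist1h2ae, chr11:99024140-99024439 for Top2a and chr10:69352863-69353162 for Cdk1.
Pclaf: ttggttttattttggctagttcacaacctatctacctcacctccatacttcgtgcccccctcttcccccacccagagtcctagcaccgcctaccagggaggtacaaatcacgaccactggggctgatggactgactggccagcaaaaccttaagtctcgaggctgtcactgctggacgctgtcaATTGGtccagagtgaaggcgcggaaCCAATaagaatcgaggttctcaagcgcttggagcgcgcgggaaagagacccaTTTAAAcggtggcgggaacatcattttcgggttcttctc
Hist1h2ae: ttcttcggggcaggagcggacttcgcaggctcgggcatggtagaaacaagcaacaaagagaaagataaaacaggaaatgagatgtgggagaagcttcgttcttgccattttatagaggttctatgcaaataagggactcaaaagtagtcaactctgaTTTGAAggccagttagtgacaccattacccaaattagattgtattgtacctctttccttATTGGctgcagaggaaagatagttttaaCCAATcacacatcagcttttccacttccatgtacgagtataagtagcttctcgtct
Top2a: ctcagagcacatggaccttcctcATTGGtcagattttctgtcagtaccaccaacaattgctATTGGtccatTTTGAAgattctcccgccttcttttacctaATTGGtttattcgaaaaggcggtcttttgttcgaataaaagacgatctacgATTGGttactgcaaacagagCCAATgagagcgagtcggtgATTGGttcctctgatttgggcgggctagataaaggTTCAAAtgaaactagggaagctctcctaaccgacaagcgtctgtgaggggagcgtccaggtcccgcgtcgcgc
Cdk1: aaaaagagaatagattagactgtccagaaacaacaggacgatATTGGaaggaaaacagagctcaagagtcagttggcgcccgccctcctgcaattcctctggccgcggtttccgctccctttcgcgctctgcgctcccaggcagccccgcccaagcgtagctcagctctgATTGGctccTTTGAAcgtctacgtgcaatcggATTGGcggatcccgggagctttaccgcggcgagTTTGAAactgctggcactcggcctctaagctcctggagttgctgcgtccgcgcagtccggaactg
Pclaf holds 2 CCAAT and 1 TTTAAA, Hist1h2ae 2 CCAAT and 1 TTTGAA, Top2a 6 CCAAT and 2 TTTGAA, and Cdk1 3 CCAAT and 2 TTTGAA. Of the other genes searched, Prtn3, at rank 5 of the highest ratios, held 0 of the 3 motifs. The rule gene Birc5 held 0 CCAAT and 1 TTTAAA, while the rule genes Mki67, Ube2c and Cenpf held CCAAT and TTTGAA. Hist1h2ap, Stmn1 and Tpx2 were not matched to the table. Of all 32851 promoters in the table, 37.4% held CCAAT, 27.6% held TTTGAA or TTTAAA and 10.7% held both kinds. Of 54 promoters of 48 matched G2 and mitosis genes, 75.9% held CCAAT, 72.2% held TTTGAA or TTTAAA and 61.1% held both kinds. For S phase genes (44 promoters of 37 genes) the shares were 65.9%, 31.8% and 22.7%. Of 9 promoters of 7 matched microglia genes of the rule, 4 held CCAAT and 0 held TTTGAA or TTTAAA. A match of letters is a description of these windows and shows no binding.

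The cell cycle lists were higher in members, which the rule fixes in part. The 59 genes of G2 and mitosis, none of them a rule gene, summed to 3295 CPM in Stat4fl/flCD11cCre and 2258 CPM in WT members, against 226 CPM in Stat4fl/flCD11cCre and 249 CPM in WT non-cycling microglia, and 59 of 59 were over 1.5-fold higher in each library. Only 3 of them passed the mean of 50 CPM, so the rest are given by sums. The 49 S phase genes summed to 2108 CPM in Stat4fl/flCD11cCre and 1473 CPM in WT against 455 CPM in Stat4fl/flCD11cCre and 485 CPM in WT non-cycling microglia, with 49 of 49 in Stat4fl/flCD11cCre and 47 of 49 in WT over 1.5-fold higher. Replication-dependent histones summed to 1119 CPM in Stat4fl/flCD11cCre and 902 CPM in WT against 214 CPM in Stat4fl/flCD11cCre and 204 CPM in WT non-cycling microglia. Of 21 tested chromatin and tubulin genes of dividing cells, 21 were past 1.5-fold in both libraries, with median log2 ratios of 1.71 in Stat4fl/flCD11cCre and 1.05 in WT, against -0.10 in Stat4fl/flCD11cCre and -0.01 in WT over all genes tested. Among marker-low cells it was 22 of 22, with medians of 1.88 in Stat4fl/flCD11cCre and 1.86 in WT.

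Single regulators lay at low levels. Foxm1, the transcription factor of the G2 programme, was at 16.3 CPM in Stat4fl/flCD11cCre and 8.85 CPM in WT members and at 0.382 CPM in Stat4fl/flCD11cCre and 0.419 CPM in WT non-cycling microglia. Mybl2, its partner, was at 9.65 CPM in Stat4fl/flCD11cCre and 6.02 CPM in WT against 0.584 CPM in Stat4fl/flCD11cCre and 0.676 CPM in WT non-cycling microglia. E2f1, which drives entry into S phase, was at 22.8 CPM in Stat4fl/flCD11cCre and 16.9 CPM in WT against 5.48 CPM in Stat4fl/flCD11cCre and 8.50 CPM in WT non-cycling microglia. Among cyclins, Ccna2 (S phase and G2) was at 58.8 CPM in Stat4fl/flCD11cCre and 30.5 CPM in WT against 0.270 CPM in Stat4fl/flCD11cCre and 0.0966 CPM in WT non-cycling microglia, and Ccnb1 (mitosis) at 53.4 CPM in Stat4fl/flCD11cCre and 31.2 CPM in WT against 0.539 CPM in Stat4fl/flCD11cCre and 0.580 CPM in WT non-cycling microglia. The G1 cyclins stood apart from these. Ccnd3 was at 274 CPM in Stat4fl/flCD11cCre and 291 CPM in WT members and 318 CPM in Stat4fl/flCD11cCre and 341 CPM in WT non-cycling microglia, and Ccnd1 at 57.2 CPM in Stat4fl/flCD11cCre and 73.3 CPM in WT against 89.3 CPM in Stat4fl/flCD11cCre and 77.6 CPM in WT non-cycling microglia. Both were thus present in cells with 0 UMIs of the proliferation genes, at levels no lower than in members. Pcna, the replication clamp, was at 134 CPM in Stat4fl/flCD11cCre and 100 CPM in WT against 51.2 CPM in Stat4fl/flCD11cCre and 51.5 CPM in WT non-cycling microglia. Cdkn1a, the p21 inhibitor of cyclin-dependent kinases, was at 201 CPM in Stat4fl/flCD11cCre and 210 CPM in WT against 110 CPM in Stat4fl/flCD11cCre and 148 CPM in WT non-cycling microglia. In marker-low members it was at 212 CPM in Stat4fl/flCD11cCre and 92.7 CPM in WT, against 34.5 CPM in Stat4fl/flCD11cCre and 50.04 CPM in WT marker-low non-cycling microglia, and 1 cell gave 18% of its UMIs in Stat4fl/flCD11cCre.

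Some microglia identity genes were lower in members, and their number depended on whether the non-cycling cells were matched on depth. Of 36 tested, 7 were over 1.5-fold lower in both libraries and 0 higher, with median log2 ratios of -0.88 in Stat4fl/flCD11cCre and -0.39 in WT, against -0.10 in Stat4fl/flCD11cCre and -0.01 in WT over all genes tested. The share of all tested genes that were lower was 1.62%. The 7 were Adgrg1, Cst3, Ecscr, Fcrls, Ltc4s, Rhob and Rnase4. Among marker-low cells 11 of 37 were lower and 0 higher, with medians of -0.47 in Stat4fl/flCD11cCre and -0.37 in WT, and 5 of 37 once non-cycling cells were also matched on UMIs. The shares of all tested genes that were lower were 3.59% among marker-low cells and 2.92% once these were matched. With all members set against non-cycling cells matched on UMIs, 0 of 35 were over 1.5-fold lower and 0 higher, with medians of -0.52 in Stat4fl/flCD11cCre and -0.07 in WT, against -0.12 in Stat4fl/flCD11cCre and -0.01 in WT over all genes tested. None of the 7 calls was thus kept for all members at matched depth. In that setting only 5 of all 3399 tested genes (0.147%) were lower, so the count of 0 lies near the share over all genes. Cst3, the protease inhibitor cystatin C, was at 11085 CPM in cycling and 26179 CPM in non-cycling microglia of Stat4fl/flCD11cCre, and at 8269 CPM in cycling and 12952 CPM in non-cycling microglia of WT. Cx3cr1, the fractalkine receptor, was at 1493 CPM in cycling and 2887 CPM in non-cycling microglia of Stat4fl/flCD11cCre, and at 1403 CPM in cycling and 1756 CPM in non-cycling microglia of WT. Csf1r, the receptor on which microglia depend for survival and division, was at 1096 CPM in cycling and 1869 CPM in non-cycling microglia of Stat4fl/flCD11cCre, and at 1105 CPM in cycling and 1357 CPM in non-cycling microglia of WT. Tgfbr1, a receptor of TGF-β that maintains the microglia signature, had log2 ratios of -1.17 in Stat4fl/flCD11cCre and -0.55 in WT, and of -0.86 in Stat4fl/flCD11cCre and -0.66 in WT among marker-low cells. The decrement was larger in Stat4fl/flCD11cCre for all members, where markers of monocyte-derived cells also differed more between members and non-cycling microglia; their part in it was not tested.

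The 10 lowest ratios included those of Ifitm10, Ltc4s, Fhit, Itga9, Agmo, Abca9, Lysmd4, Hspa1b and P3h2. Ltc4s, the synthase of leukotriene C4, was at 145 CPM in cycling and 419 CPM in non-cycling microglia of Stat4fl/flCD11cCre, and at 107 CPM in cycling and 212 CPM in non-cycling microglia of WT (log2 ratios -1.53 in Stat4fl/flCD11cCre and -0.98 in WT). Agmo, which cleaves ether lipids, was at 153 CPM in cycling and 411 CPM in non-cycling microglia of Stat4fl/flCD11cCre, and at 117 CPM in cycling and 226 CPM in non-cycling microglia of WT (-1.43 in Stat4fl/flCD11cCre and -0.95 in WT). Hspa1b, an inducible heat shock protein with a near-identical neighbour that may share its reads, was at 152 CPM in cycling and 272 CPM in non-cycling microglia of Stat4fl/flCD11cCre, and at 333 CPM in cycling and 598 CPM in non-cycling microglia of WT (-0.84 in each). Fhit (a diadenosine triphosphate hydrolase) had log2 ratios of -1.43 in Stat4fl/flCD11cCre and -0.95 in WT, Itga9 (an integrin subunit) -1.31 in Stat4fl/flCD11cCre and -0.95 in WT, and Abca9 (a lipid transporter family member) -1.30 in Stat4fl/flCD11cCre and -0.92 in WT. Malat1, an abundant nuclear long non-coding RNA, was at 8281 CPM in cycling and 16412 CPM in non-cycling microglia of Stat4fl/flCD11cCre, and at 10789 CPM in cycling and 16732 CPM in non-cycling microglia of WT. Against non-cycling cells matched one by one on UMIs, the number of genes over 1.5-fold lower in both libraries was 5 of 3399 (0.147%), while 53 (1.56%) were higher. With marker-rich cells left out as well, it was 102 of 3495 (2.92%) lower and 175 (5.01%) higher.

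Few energy and growth genes passed 1.5-fold in all members. Of 55 tested oxidative phosphorylation genes, 0 passed 1.5-fold in both libraries in either direction, with median log2 ratios of 0.61 in Stat4fl/flCD11cCre and 0.21 in WT against -0.10 in Stat4fl/flCD11cCre and -0.01 in WT over all genes tested. Over all genes tested in all members, 1.95% were higher and 1.62% lower. Among marker-low cells 4 of 55 were over 1.5-fold higher and 0 lower, with medians of 0.34 in Stat4fl/flCD11cCre and 0.43 in WT. Over all genes tested in marker-low cells, 201 of 3505 (5.73%) were higher and 126 (3.59%) lower, so the count of 4 lies near that share. The 4, named after their values were seen, were Cycs (cytochrome c) and the ATP synthase subunits Atp5g3, Atp5k and Atp5o. Glycolysis genes had 0 of 15 past 1.5-fold in all members, and 5 of 13 higher and 0 lower among marker-low cells, where Gapdh had log2 ratios of 1.03 in Stat4fl/flCD11cCre and 0.92 in WT and Pkm 0.83 in Stat4fl/flCD11cCre and 1.01 in WT. The other 3 were Tpi1, Pgk1 and Ldha. The median log2 ratio of glycolysis genes over all members was 0.52 in Stat4fl/flCD11cCre and 0.24 in WT, and -0.12 in Stat4fl/flCD11cCre and -0.10 in WT against non-cycling cells matched on UMIs. Among marker-low cells matched on UMIs, 2 of 13 glycolysis genes were higher and 0 lower, with medians of 0.25 in Stat4fl/flCD11cCre and 0.45 in WT. Over all genes tested in that setting, 5.01% were higher and 2.92% lower. Ribosome biogenesis genes had 2 of 10 higher in all members, Nhp2 and Pa2g4, and 4 of 10 among marker-low cells. Of 24 tested immediate early and stress genes 0 were higher, and Hspa1b was lower. Of 19 tested growth factor and receptor genes, 0 were past 1.5-fold in all members, with median log2 ratios of -0.61 in Stat4fl/flCD11cCre and -0.24 in WT, and among marker-low cells 2 were lower and 0 higher. Spp1, the secreted protein osteopontin, was at 325 CPM in cycling and 115 CPM in non-cycling microglia of Stat4fl/flCD11cCre, but 1 cell gave 47% of its UMIs in the cycling set, and in WT it was at 124 CPM in cycling and 158 CPM in non-cycling microglia.

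Between genotypes, cycling microglia of Stat4fl/flCD11cCre had lower levels of antigen presentation and interferon-induced genes than those of WT. Of 3626 genes with a mean of 50 CPM or more, 135 (3.72%) were over 1.5-fold lower in Stat4fl/flCD11cCre and 98 (2.7%) higher. In non-cycling microglia it was 226 (6.2%) lower and 204 (5.6%) higher of 3646. Among marker-low cells, 110 of 3863 genes (2.85%) were lower and 144 (3.73%) higher in cycling microglia, and 170 of 3690 (4.61%) lower and 98 (2.66%) higher in non-cycling microglia. The median log2 ratio over all genes tested was 0.04 in cycling and 0.11 in non-cycling microglia.

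All 6 tested MHC class II genes were over 1.5-fold lower in Stat4fl/flCD11cCre cycling microglia, with a median log2 ratio of -0.88. In non-cycling microglia 7 of 7 were lower, with a median of -0.97. MHC class II protein was one of the markers of the sort, so these transcripts describe cells from a sort aimed at their product. Cd74, the invariant chain, was at 3309 CPM in Stat4fl/flCD11cCre and 6380 CPM in WT members. H2-Aa, an MHC class II α chain, was at 1188 CPM in Stat4fl/flCD11cCre and 2164 CPM in WT, with a UMI in 67.5% of Stat4fl/flCD11cCre and 92.7% of WT members. After thinning to 2500 UMIs it was seen in 48.2% of Stat4fl/flCD11cCre and 83.7% of WT members, and in 23.3% of Stat4fl/flCD11cCre and 74.0% of WT non-cycling microglia. In cells with Cd3e the thinned share was 10.3% in Stat4fl/flCD11cCre and 15.6% in WT, and in neutrophil-like cells 19.0% in Stat4fl/flCD11cCre and 39.1% in WT, a background that also differed between the libraries. Marker-low members had 521 CPM of H2-Aa in Stat4fl/flCD11cCre, 24% of it from 1 cell, and 1396 CPM in WT. For Cd74 it was 1404 CPM in Stat4fl/flCD11cCre and 3917 CPM in WT. Among marker-low microglia 6 of 7 MHC class II genes were over 1.5-fold lower in cycling and 7 of 7 in non-cycling cells, with median log2 ratios of -1.19 in cycling and -2.32 in non-cycling cells. The direction was the same in both, and the size of the ratio was smaller in the cycling cells, a difference that could not be tested.

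MHC class I and processing genes were lower too, by less. Of 19 tested, 7 were over 1.5-fold lower in Stat4fl/flCD11cCre cycling microglia and 0 higher, with a median log2 ratio of -0.52, and in non-cycling microglia 14 of 18 were lower. B2m, the light chain shared by class I molecules, was at 2757 CPM in Stat4fl/flCD11cCre and 3973 CPM in WT members. H2-K1, a classical class I heavy chain, was at 1536 CPM in Stat4fl/flCD11cCre and 2423 CPM in WT. H2-Q7, a non-classical one with near-identical copies that may share its reads, was at 247 CPM in Stat4fl/flCD11cCre and 416 CPM in WT.

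Interferon-γ response genes were lower in 15 of 16 tested in Stat4fl/flCD11cCre cycling microglia, with a median log2 ratio of -1.0, and in 14 of 16 in non-cycling microglia, with a median of -1.23. Among marker-low cells it was 9 of 17 with a median of -0.60, and 13 of 14 with -1.66. Iigp1, an immunity-related GTPase, was at 85.7 CPM in Stat4fl/flCD11cCre and 284 CPM in WT members, a log2 ratio of -1.73 (-1.86 to -1.60), and at 149 CPM in Stat4fl/flCD11cCre and 476 CPM in WT marker-low members. Thinned shares of cells with Iigp1 were 17.2% in Stat4fl/flCD11cCre and 37.8% in WT members and 5.77% in Stat4fl/flCD11cCre and 26.4% in WT non-cycling microglia. In cells with Cd3e they were 5.96% in Stat4fl/flCD11cCre and 7.39% in WT, and in neutrophil-like cells 2.68% in Stat4fl/flCD11cCre and 10.4% in WT. The share in neutrophil-like cells thus also differed between the libraries. Cxcl9, a chemokine that draws T cells through CXCR3, was at 115 CPM in Stat4fl/flCD11cCre and 341 CPM in WT (-1.56, -1.68 to -1.45), and at 23.3 CPM in Stat4fl/flCD11cCre and 270 CPM in WT marker-low members, where 1 cell gave 41% of the UMIs in Stat4fl/flCD11cCre. Cxcl10, which uses the same receptor, was at 267 CPM in Stat4fl/flCD11cCre and 540 CPM in WT. Gbp2, a guanylate-binding protein, was at 150 CPM in Stat4fl/flCD11cCre and 335 CPM in WT. Every gene named here was lower in Stat4fl/flCD11cCre in both sets of members.

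Genes of the type I interferon response had 15 of 23 over 1.5-fold lower and 0 higher in cycling microglia (median log2 ratio -0.69), and 20 of 25 lower in non-cycling microglia (-0.93). Among marker-low members 9 of 19 were lower. Isg15, a ubiquitin-like modifier, was at 121 CPM in Stat4fl/flCD11cCre and 274 CPM in WT members. Oasl2, of the oligoadenylate synthetase family, was at 72.5 CPM in Stat4fl/flCD11cCre and 169 CPM in WT. Of 18 tested chemokines and cytokines 8 were lower and 0 higher in all members, and 3 of 15 lower (Ccl5, Cxcl9 and Cxcl10) and 1 higher (Il1a) in marker-low members. Ccl5, a CC chemokine that T cells also make, was at 223 CPM in Stat4fl/flCD11cCre and 656 CPM in WT over all members and at 37.0 CPM in Stat4fl/flCD11cCre and 245 CPM in WT marker-low members. Ccl4, another CC chemokine, was at 642 CPM in Stat4fl/flCD11cCre and 727 CPM in WT over all members and 1335 CPM in Stat4fl/flCD11cCre and 1024 CPM in WT marker-low members, so its order turned with the set. Tnf, the inflammatory cytokine, did the same, at 125 CPM in Stat4fl/flCD11cCre and 196 CPM in WT over all members and 227 CPM in Stat4fl/flCD11cCre and 161 CPM in WT marker-low members.

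The remaining genes with the lowest ratios were Acod1, Ly6i, AA467197, Tnfaip2 and Cfb. Acod1, which makes itaconate, was at 85.9 CPM in Stat4fl/flCD11cCre and 262 CPM in WT members, and at 51.5 CPM in Stat4fl/flCD11cCre and 60.0 CPM in WT marker-low members. AA467197 was at 175 CPM in Stat4fl/flCD11cCre and 414 CPM in WT over all members, with a log2 ratio of 0.05 in marker-low members. Cfb, complement factor B, was at 89.0 CPM in Stat4fl/flCD11cCre and 208 CPM in WT, with log2 ratios of -1.22 in all and -1.72 in marker-low members. Ly6i, a member of a family of near-identical genes that is itself one of the markers of monocyte-derived cells used here, was at 95.2 CPM in Stat4fl/flCD11cCre and 256 CPM in WT, and Tnfaip2 at 124 CPM in Stat4fl/flCD11cCre and 292 CPM in WT. Without marker-rich cells, Cfb, Ly6i and Tnfaip2 stayed over 1.5-fold lower, at under 100 CPM in each library, while Acod1 and AA467197 did not.

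**Figure D5:**
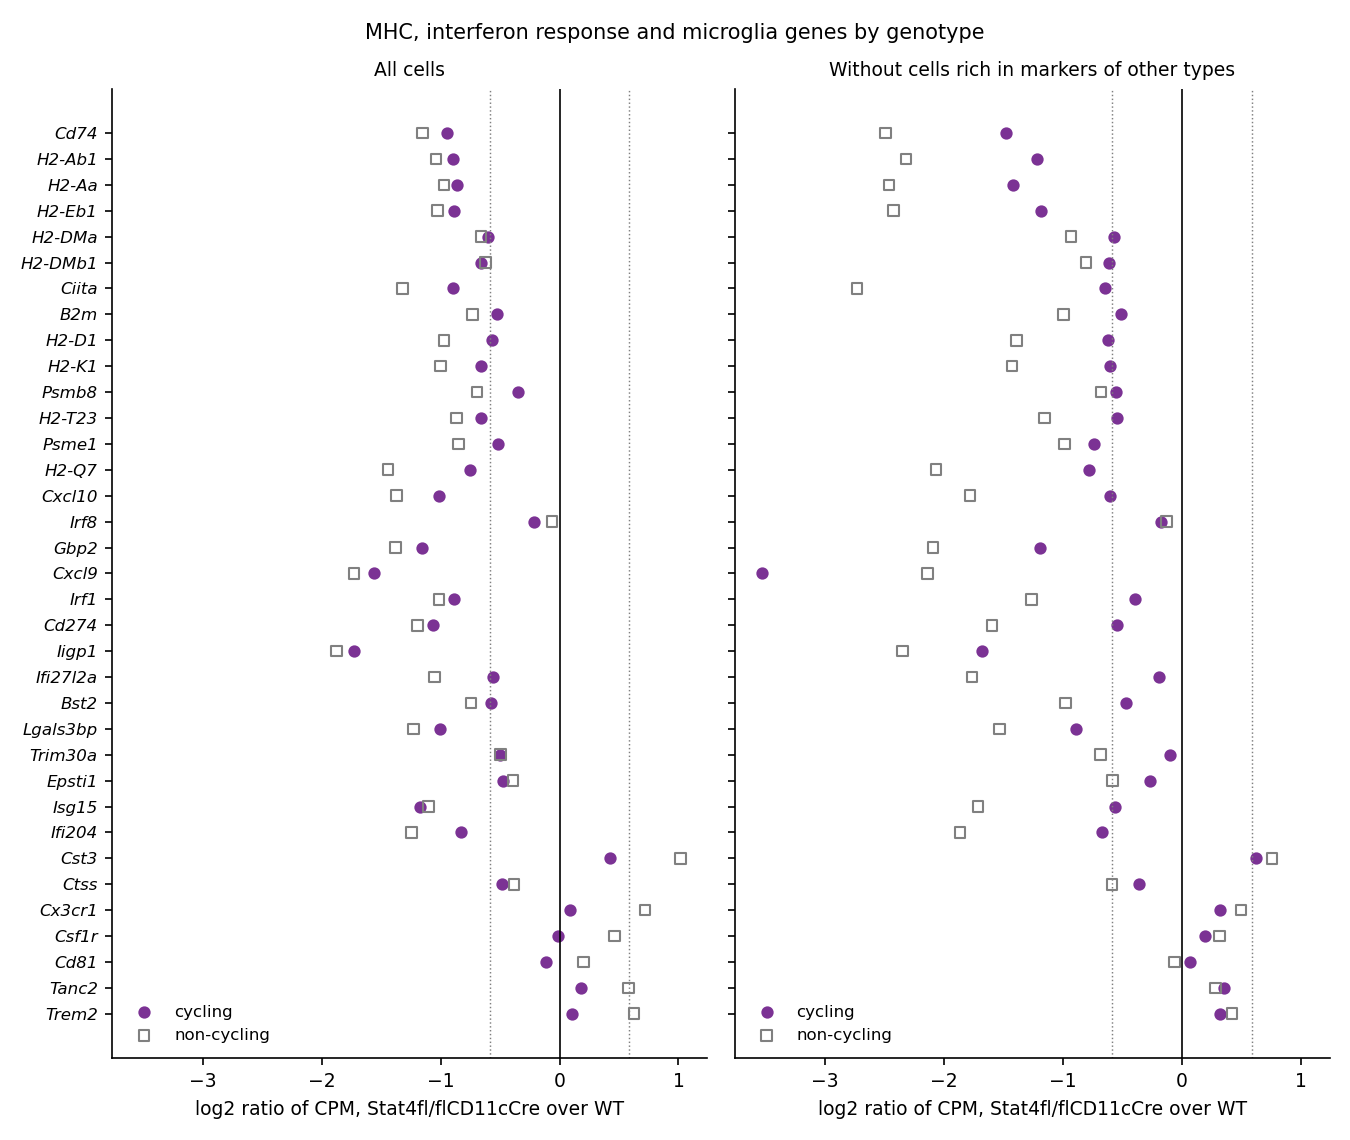
log2 ratio of CPM, Stat4fl/flCD11cCre over WT (horizontal axis), of antigen presentation, interferon response and microglia identity genes, in cycling and in non-cycling microglia, for all cells and for cells that are not marker-rich. MHC class II genes such as H2-Aa (-0.87 in cycling and -0.97 in non-cycling microglia, all cells) lie left of 0 in every set, and Cst3 (0.42 in cycling and 1.02 in non-cycling microglia) lies right of it.

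Genes that were higher in Stat4fl/flCD11cCre members were led by granule genes of neutrophils and their progenitors. The 10 highest were Jchain, Elane, Camp, Ctsg, Prtn3, Mpo, Ms4a3, Ltf, Ngp and Tuba4a. Elane, neutrophil elastase, was at 474 CPM in Stat4fl/flCD11cCre and 67.6 CPM in WT, with 26% of its UMIs in Stat4fl/flCD11cCre and 59% in WT from 1 cell. In marker-low members it was at 0 CPM in Stat4fl/flCD11cCre and 0.606 CPM in WT. Jchain, the joining chain of secreted antibodies, was at 165 CPM in Stat4fl/flCD11cCre and 21.2 CPM in WT, with 57% of its UMIs in Stat4fl/flCD11cCre and 97% in WT from 1 cell. Ctsg (cathepsin G) was at 341 CPM in Stat4fl/flCD11cCre and 55.0 CPM in WT and Mpo (myeloperoxidase) at 224 CPM in Stat4fl/flCD11cCre and 41.1 CPM in WT. Of 6 tested granulocyte progenitor markers 5 were over 1.5-fold higher, and these genes moved with the 10.6% of Stat4fl/flCD11cCre and 1.62% of WT members past the limit for that marker list. They describe marker-rich members.

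The higher level of cell cycle genes in Stat4fl/flCD11cCre members was also a feature of the full set. Of 21 tested G2 and mitosis genes 8 were over 1.5-fold higher and 0 lower (median log2 ratio 0.49), and of 23 chromatin and tubulin genes 10 were higher and 0 lower (0.52). Among marker-low members it was 1 of 41 (Aurka) and 0 of 23, with medians of 0.05 for the first list and -0.06 for the second. The G2 and mitosis genes summed to 4745 CPM in Stat4fl/flCD11cCre and 4583 CPM in WT marker-low members. The log2 ratio of these sums was 0.05, against 0.55 for all members.

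Microglia identity genes over 1.5-fold higher in Stat4fl/flCD11cCre were fewer in cycling than in non-cycling microglia over all cells, but not among marker-low cells, and the difference between the cell sets was not tested. Of 35 tested, Fcrls alone was over 1.5-fold higher in Stat4fl/flCD11cCre cycling microglia and 0 were lower (median log2 ratio 0.07), against 17 of 37 higher in non-cycling microglia (0.57). Among marker-low cells it was 6 of 37 higher and 0 lower in cycling and 6 of 37 higher and 1 lower in non-cycling microglia, with medians of 0.30 in cycling and 0.39 in non-cycling microglia. Fcrls, an Fc receptor-like protein of microglia, was at 464 CPM in Stat4fl/flCD11cCre and 240 CPM in WT members, and at 880 CPM in Stat4fl/flCD11cCre and 424 CPM in WT marker-low members. Thinned shares of cells with Fcrls were 62.4% in Stat4fl/flCD11cCre and 38.0% in WT members and 84.5% in Stat4fl/flCD11cCre and 50.9% in WT non-cycling microglia.

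Immediate early and stress genes were over 1.5-fold higher in 11 of 23 tested in Stat4fl/flCD11cCre marker-low members and lower in 0, with a median log2 ratio of 0.56, while in marker-low non-cycling microglia 0 of 24 were higher and 4 lower (-0.20). Over all genes tested, 3.73% were higher in marker-low members, and 2.66% were higher and 4.61% lower in marker-low non-cycling microglia. In all members Klf4 was higher and the heat shock genes Hspa1a and Hspa1b lower, of 24 tested, with a median of 0.08. Egr1, a transcription factor induced by growth signals, was at 544 CPM in Stat4fl/flCD11cCre and 201 CPM in WT marker-low members, Fos at 712 CPM in Stat4fl/flCD11cCre and 286 CPM in WT, Ier2 at 282 CPM in Stat4fl/flCD11cCre and 98.2 CPM in WT, and the antiproliferative gene Btg2 at 627 CPM in Stat4fl/flCD11cCre and 264 CPM in WT. Single cells weighed on these sums, since 1 cell gave 25% of the Egr1 UMIs, 20% of those of Fos and 20% of those of Btg2 in Stat4fl/flCD11cCre. With each cell weighted equally, the log2 ratio was 1.36 for Egr1 and 0.98 for Btg2, and 10 of 22 tested genes were higher. Thinned shares of marker-low members, Stat4fl/flCD11cCre first, were 25.5% and 15.2% for Egr1 and 23.4% and 13.3% for Fos. They were 24.5% and 11.4% for Ier2 and 40.4% and 32.3% for Btg2. For Jun, of the same list, they were 44.7% and 50.6%, the other order. The intervals of the libraries overlapped for each of these genes.

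The targeted gene was scarce in the cycling microglia of both libraries. Stat4 was at 13.8 CPM in Stat4fl/flCD11cCre and 12.9 CPM in WT members, with a UMI in 13.5% of Stat4fl/flCD11cCre and 11.5% of WT cells. After thinning it was seen in 1.82% of Stat4fl/flCD11cCre and 2.03% of WT members, against 42.4% of Stat4fl/flCD11cCre and 40.7% of WT cells with Cd3e. In marker-low members it was at 18.5 CPM in Stat4fl/flCD11cCre, where 1 cell gave 91% of the UMIs, and at 4.24 CPM in WT. Reads lie near the 3′ end, and where the deleted part lies is not given in the sources used here, so this level does not check the deletion. Itgax, which encodes CD11c, was at 23.4 CPM in Stat4fl/flCD11cCre and 36.2 CPM in WT, in 25.2% of Stat4fl/flCD11cCre and 40.1% of WT members. Il12rb1, a subunit of the receptors of both cytokines, was at 4.68 CPM in Stat4fl/flCD11cCre and 7.12 CPM in WT, and Il23r at 0.426 CPM in Stat4fl/flCD11cCre and 0.182 CPM in WT.

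Antibody tags counted in the same droplets gave 5 surface proteins. CD11b, an integrin of myeloid cells, took a median of 60.5% of tag UMIs in Stat4fl/flCD11cCre and 67.7% in WT members, against 56.7% in Stat4fl/flCD11cCre and 65.5% in WT non-cycling microglia. CD172a, the signal regulatory protein SIRPα, took 24.4% in Stat4fl/flCD11cCre and 19.2% in WT against 26.2% in Stat4fl/flCD11cCre and 20.5% in WT non-cycling microglia. MERTK, a receptor for dying cells, took 6.46% in Stat4fl/flCD11cCre and 3.86% in WT against 8.58% in Stat4fl/flCD11cCre and 5.29% in WT non-cycling microglia. CD317, an interferon-induced tether also named BST2, took 4.60% in Stat4fl/flCD11cCre and 5.72% in WT against 3.76% in Stat4fl/flCD11cCre and 4.88% in WT non-cycling microglia. XCR1, a chemokine receptor of conventional dendritic cells, took 3.27% in Stat4fl/flCD11cCre and 2.21% in WT against 4.07% in Stat4fl/flCD11cCre and 2.62% in WT non-cycling microglia. In cells with Cd3e XCR1 took 12.4% in Stat4fl/flCD11cCre and 9.35% in WT, and in neutrophil-like cells 3.27% and 1.84%. CD172a took 46.8% in Stat4fl/flCD11cCre and 35.9% in WT cells with Cd3e, and 25.3% and 20.4% in neutrophil-like cells. For both tags the order of the genotypes was that of members, and the XCR1 share does not show the protein on members. The MERTK share was lower in members than in non-cycling microglia in each library, and higher in Stat4fl/flCD11cCre than in WT in both. It was also higher in Stat4fl/flCD11cCre in control cells, at 15.9% in Stat4fl/flCD11cCre and 10.2% in WT cells with Cd3e and 4.13% in Stat4fl/flCD11cCre and 1.95% in WT neutrophil-like cells. The CD317 share was higher in members than in non-cycling microglia in each library, and lower in Stat4fl/flCD11cCre than in WT in both. In cells with Cd3e it was 10.1% in Stat4fl/flCD11cCre and 10.9% in WT, the same order. In neutrophil-like cells it was 2.74% in Stat4fl/flCD11cCre and 2.17% in WT, the other order. The cycling cells that were not microglia also had the other order, at 5.73% in Stat4fl/flCD11cCre and 4.58% in WT. The transcript of CD317, Bst2, was at 417 CPM in Stat4fl/flCD11cCre and 620 CPM in WT members.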

How the data were processed

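Droplet libraries (10x Genomics 3′ chemistry) of sorted CNS cells were analysed, 1 per genotype, so samples were grouped by the genotype in the labels. Each deposited matrix holds unnormalized UMI counts by gene and cell barcode, and its header names Cell Ranger 7.0.0. Beyond that tool, mm10, bcl2fastq, STAR, Seurat and R 4.3.0 appear in the submitters' processing notes. Which annotation was used, whether introns were counted and whether doublets had been removed is not given in the sources used here.

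Barcodes with 500 or more genes, 1000 or more gene UMIs and under 10% mitochondrial UMIs were kept, 12305 of 12534 in Stat4fl/flCD11cCre and 13298 of 13820 in WT. The 5 antibody tags were left out of gene totals. UMIs were summed per library and cell set and scaled to CPM. Ratios carry exact conditional binomial intervals and shares Clopper-Pearson intervals, which cover counting error only. With 1 library per genotype no test was possible, and genes past 1.5-fold with a mean of 50 CPM or more were counted, without the 17 genes of the rule. Doublets were scored with Scrublet (scanpy 1.11.5) and not removed in the main values. Shares of cells with a UMI were thinned to 2500 UMIs, leaving out shallower cells. Python 3.11.15, numpy 2.4.6, scipy 1.17.1 and pandas 2.3.3 were used. The code for ratios and intervals was run on simulated Poisson counts, the model that the intervals assume. That run checks the code and leaves out the spread between cells and between pools.

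Members and gene lists were chosen with earlier results of these data known. Named genes are those of the rule, the 15 highest and 10 lowest ratios of cycling over non-cycling microglia (by the weaker library), the 10 highest and 10 lowest between genotypes (by the interval bound nearest to 1), up to 8 members of each list, and a short list of cell cycle and STAT4 pathway genes. Mitochondrial, ribosomal protein, immunoglobulin and predicted genes were left out of these ranks, and some genes named by these rules are not reported here. Leaving out marker-rich cells and weighting each cell equally were added after the data had been seen.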

Additional observations from a re-analysis of the deposited data

Results flagged for a closer look

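Some marker lists and 1 gene lay in opposite directions in the sets compared, and these differences were not tested. B cell markers had a log2 ratio of cycling over non-cycling microglia of 2.45 in Stat4fl/flCD11cCre and -1.23 in WT. Their log2 ratio of Stat4fl/flCD11cCre over WT was 2.49 in cycling and -1.19 in non-cycling microglia. In the member with the highest content they took 1828 of 10000 UMIs, against a median of 1.33 over Stat4fl/flCD11cCre members. Choroid plexus epithelium markers had a log2 ratio of Stat4fl/flCD11cCre over WT of 1.65 in cycling and -2.10 in non-cycling microglia, with sums of 223 and 70.9 CPM in cycling and 208 and 888 CPM in non-cycling microglia. Mpo, a granule enzyme of neutrophil progenitors, had 2.45 in cycling and -0.91 in non-cycling microglia. In marker-low members 5 of the 10 B cell markers, among them Cd79a, Ms4a1, Pax5 and Fcmr, were at 0 UMIs in both libraries.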

How the results depend on the processing

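No paired analysis was possible because there was 1 library per genotype. Shares of microglia that cycled are given for Stat4fl/flCD11cCre first and WT second. They were 5.74% and 13.8% with 2 or more proliferation genes, 3.53% and 7.39% with 4 or more, 3.38% and 8.45% without the top 10% of Scrublet scores, 2.08% and 6.26% in cells with under 2 UMIs of 8 genes of other types (ratio 0.333), 1.81% and 3.61% after thinning to 2500 UMIs with the whole rule, 1.95% and 3.54% with the proliferation part alone thinned (ratio 0.552), and 2.01% and 5.94% without marker-rich cells (ratio 0.339). The share was the lower one in Stat4fl/flCD11cCre under each of these settings. Genes over 1.5-fold higher and lower in cycling microglia in both libraries numbered 222 and 167 with under 2 UMIs of the 8 genes, 191 and 133 thinned, 181 and 99 with a mean of 20 CPM, 983 and 972 with no filter, 27 and 3 at 2-fold, 169 and 186 with equal cell weights, 201 and 126 without marker-rich cells, 175 and 102 with depth matched as well, and 259 and 203 without them at equal weights. The lower count was 17 with non-cycling cells of 0 to 2 proliferation genes and 5 with matched depth. Genes higher and lower in Stat4fl/flCD11cCre cycling microglia numbered 396 and 315 thinned, 200 and 229 at a mean of 20 CPM, 1311 and 1483 with no filter and 28 and 27 at 2-fold. The higher count was 159 without the top Scrublet scores, 55 with equal weights and 181 without marker-rich cells at equal weights, and the lower count was 85 with under 2 UMIs of the 8 genes. Single genes turned direction where cells with markers of other types were left out or thinned. The log2 ratio between genotypes of AA467197 was 0.16 thinned, 0.054 without marker-rich cells and 0.096 without them at equal weights, that of Acod1 0.060, Ngp -0.71, Prtn3 -1.34 and Tuba4a -0.45 with under 2 UMIs of the 8 genes, that of Camp -0.54, -0.40 and -0.18 across those 3 exclusions, Prtn3 -0.33 without marker-rich cells and Tuba4a -0.44 without them at equal weights. Camp in cycling over non-cycling microglia was -0.45, -0.40 and -0.49 in Stat4fl/flCD11cCre under the exclusions and -2.26 thinned in WT. The cause was not tested. No replicate shows how pools of mice vary, and genes under 50 CPM rest on few UMIs.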
